A study of Mus musculus with 32 samples.

Results

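The genes described here encode the nuclear subunits of oxidative phosphorylation, the chain of mitochondrial complexes that makes most of the ATP of a resting cell. They were chosen by name: symbols beginning with Nduf, Uqcr, Atp5, Cox4i, Cox5, Cox6, Cox7 or Cox8, and the 4 Sdh genes. Among 23337 genes counted, 89 carried such a name, and 87 of these had at least 10 counts in at least 5 of the 32 libraries. The testis form Cox8c (highest count 2) and Cox7b2 (highest count 9) had 10 counts in 0 libraries and were not kept. The 87 genes divide into 40 of complex I, 4 of complex II, 8 of complex III, 18 of complex IV and 17 of complex V. Of these, 81 encode subunits and 6 are assembly factors or relatives that share the name (Ndufaf1 to Ndufaf4, Atp5s and Atp5sl). Ndufa4 and its relative Ndufa4l2, named after complex I, were counted with complex IV, to which the Ndufa4 protein belongs.

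RNA was sequenced from cells sorted out of mouse gliomas. Per the labels' protocols, XFM mice aged 5 to 6 weeks had received DF-1 cells (a chicken fibroblast line) producing PDGFB in the brain, and dosing began once a tumour measured 20 to 40 mm3. Mice were dosed daily until symptoms or an age of 26 weeks, either with vehicle or with BLZ945, which blocks CSF-1R, the receptor that macrophages need to survive. Cells with Cd11b and without Gr1 were sorted as tumour-associated macrophages and microglia (TAM), and cells with PDGFRA as tumour cells (TC). The Vehicle group gave 5 TAM and 5 TC libraries (mice 54359, 54363, 57098, 57682 and 64247). The Endpoint group, BLZ945-treated mice whose tumours the labels call dormant, gave 6 and 6 (49823, 49825, 49830, 49831, 49843 and 49845). The Rebound group, also BLZ945-treated, gave 5 TAM (49041, 49059, 49827, 49834 and 49849) and 5 TC libraries (49692 in place of 49834). Since a treatment label reads BLZ945 on every sample, those of the Vehicle group too, treatment was taken from stage and source name. Libraries are named below by group and mouse.

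Complex I passes electrons from NADH, and complex II from succinate, to ubiquinone. Complex III hands them on to cytochrome c and complex IV to oxygen, and the proton gradient that complexes I, III and IV build drives the ATP synthase, complex V. Complexes I, III, IV and V each also contain subunits encoded in mitochondrial DNA, which were not analysed here. A few complex IV subunits exist in alternative forms, a common one and another best known from heart and skeletal muscle, testis or lung.

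Total counts (in M) were 25.6 to 30.4 in Vehicle TAM, 9.54 to 15.8 in Endpoint TAM, 15.4 to 19.6 in Rebound TAM, 13.1 to 23 in Vehicle TC, 4.18 to 14 in Endpoint TC and 10.5 to 16.5 in Rebound TC. In all 22 BLZ945 libraries, and in 0 of the 10 vehicle libraries, every count was even. This difference coincides with treatment. In each comparison with Vehicle, and each interaction built on one, it cannot be told apart from treatment or stage. Markers of the sorted cells were examined first. The summed level of 12 myeloid markers was 24600 to 76900 CPM (counts scaled to library size) in TAM and 36.5 to 7520 in TC libraries. That of 12 tumour cell markers was 42.6 to 334 CPM in TAM, 2280 to 7790 in Vehicle TC and 2240 to 7400 in Rebound TC. In the Endpoint TC libraries tumour cell markers summed to only 306 to 2320 CPM, and 10 of the 12 were lower than in Vehicle. Summed ependymal and choroid plexus markers were 5240 to 186000 CPM there, against 12.7 to 519 in Vehicle TC and 3.41 to 950 in Rebound TC. Ttr made up most of that sum in the Endpoint TC libraries, at 4970 to 179000 CPM (median 27400, against 28500 for the sum). Myelinating oligodendrocyte markers were 18600 to 29000 CPM, against 2680 to 15400 and 857 to 15200, but 0 of these 7 markers were called between Endpoint and Vehicle TC. By these sums the Endpoint TC libraries go against their label. The ependymal and choroid plexus sum exceeded the tumour cell sum in all 6, and in 0 of the 10 other TC libraries. That excess rests largely on Ttr, and whether it holds without Ttr was not tested. Of 9 ependymal and choroid plexus markers tested, 6 were higher and 0 lower in Endpoint than in Vehicle TC. T and NK cell markers exceeded 1000 CPM in 4 Endpoint TC libraries (49823, 49825, 49830 and 49831) and in Rebound TC 49827.

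A few libraries stood apart in the subunit genes themselves. Endpoint TC 49845 was the highest Endpoint TC library for 81 of the 87 genes (28.3% of all genes tested in TC), and Rebound TC 49827 the highest Rebound TC library for 68 (33% of all). The libraries of Vehicle mice 57098 and 57682 both lay below the other 3 for 61 of the 85 genes tested in TAM, against 22.2% of all genes, and for 73 of 87 in TC, against 18.4%. The ribosomal precursor Rn45s took 0.391 to 2.07% of counts in the 4 libraries of these mice and 6.83 to 11.1% in the other 6 Vehicle libraries. Counts of called genes below are therefore also given without these libraries where that moves them by more than 1.5 times. Mice 57098 and 57682 were picked by low values of these same genes. Leaving them out raises the Vehicle level, so more lower calls against Vehicle follow from the choice.

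**Figure D1:**
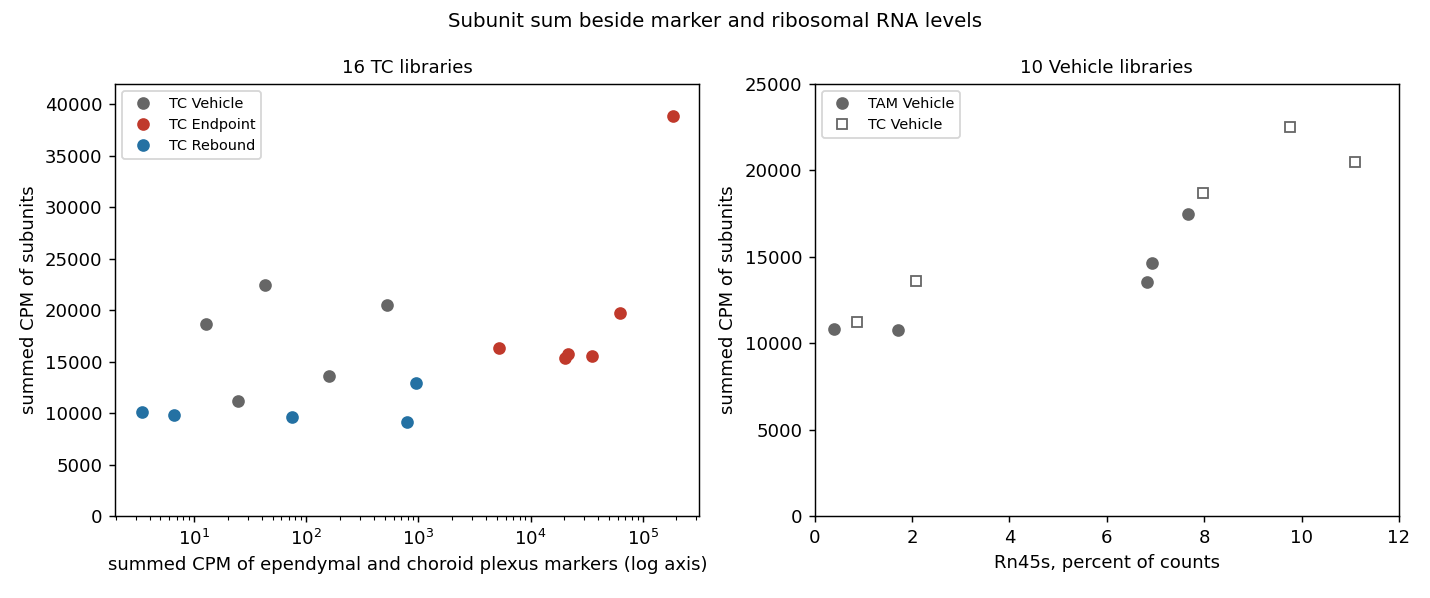
Left, summed CPM of the 81 subunits (linear axis) against summed CPM of ependymal and choroid plexus markers (log axis) in the 16 TC libraries, where the 6 Endpoint libraries lie at 5240 CPM of markers or more and 49845 is highest on both axes (38820 CPM of subunits). In the Endpoint libraries the marker sum is mostly Ttr. Right, the subunit sum against the percent of counts on Rn45s in the 10 Vehicle libraries, where mice 57098 and 57682 have 2.07% or less.

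Subunit transcripts made up 1.54 to 3.88% of TMM-scaled counts, the basis of CPM here, in the Endpoint TC libraries and 0.793 to 2.25% in the other groups. The scaling factors were 0.5443 to 0.7457 in Vehicle TAM and 0.9387 to 1.04 in Endpoint TAM. Shares of unscaled counts therefore differ from these, and differences between groups depend on the scaling. Summed over the 81 subunits, Vehicle TAM libraries ranged from 10750 to 17440 CPM (median 13560). Endpoint TAM ranged from 7927 to 11320 (median 10370) and Rebound TAM from 9099 to 10390 (median 9747). All 5 Rebound TAM libraries lay below every Vehicle TAM library, and Endpoint overlapped Vehicle only through its 3 highest libraries. Vehicle TC ranged from 11210 to 22480 CPM (median 18660), Endpoint TC from 15380 to 38820 (median 16030) and Rebound TC from 9126 to 12900 (median 9867). Rebound TC thus lay wholly below Endpoint TC, and 4 of its 5 libraries lay below all Vehicle TC libraries. In bulk RNA a change in the mix of sorted cells and a change in RNA per cell cannot be told apart.

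**Figure D2:**
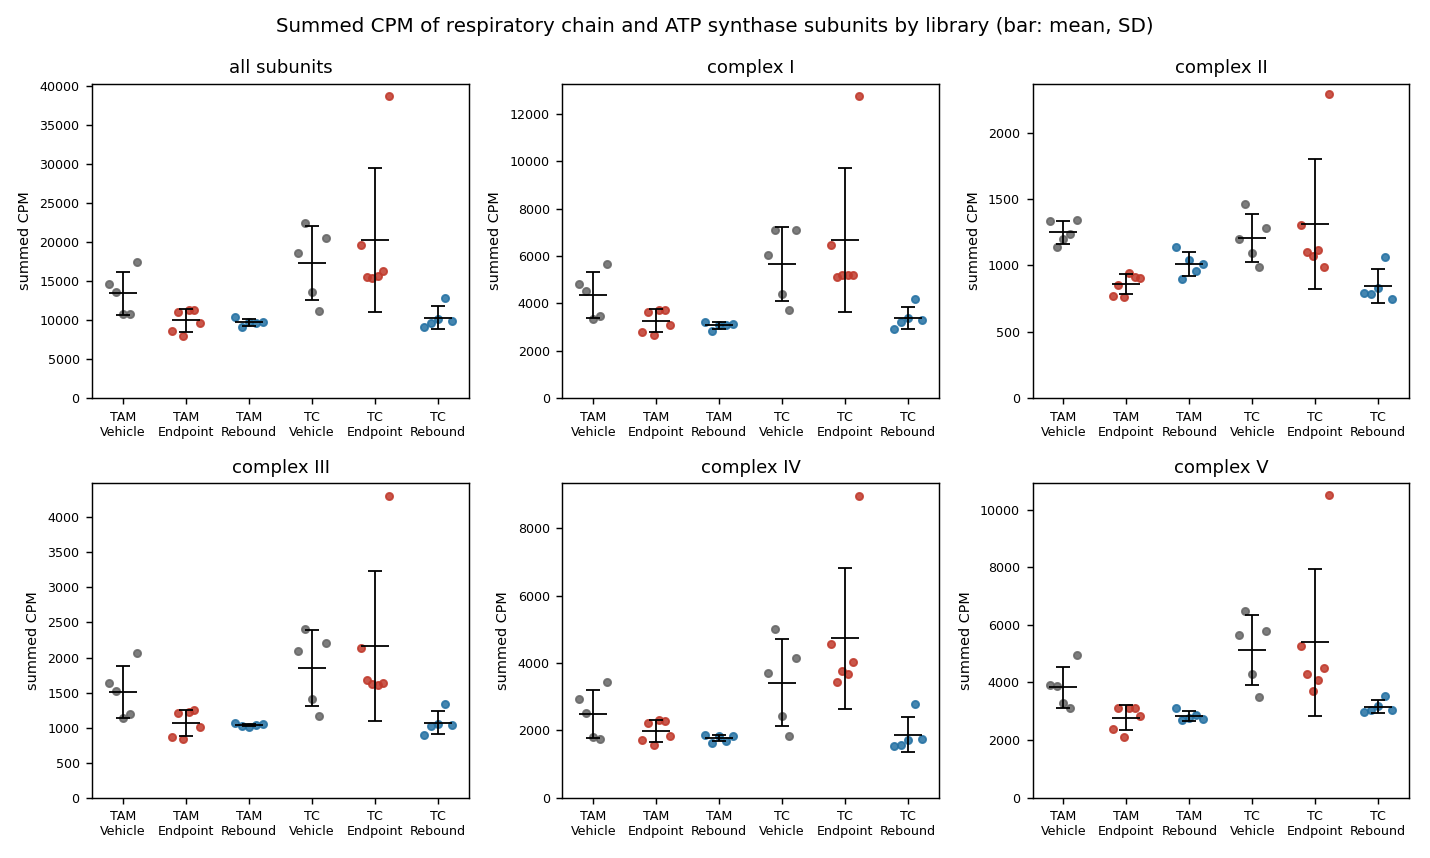
Summed CPM (linear axis from 0) of all 81 subunits and of the subunits of complexes I to V, with 1 point per library and a bar for the mean with its SD in each of the 6 groups (n = 5 or 6). In the first panel the Endpoint TC libraries lie between 15380 and 38820 CPM and the Rebound TC libraries between 9126 and 12900.

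Per kilobase of transcript, which allows levels of different genes to be compared, the median subunit of complex I had a group mean of 168 CPM per kb in Vehicle TAM and 191 in Vehicle TC. Complex III had 285 and 321, complex IV 192 and 394, and complex V 216 and 303. In both cell types complex I had the lowest median of these 4 complexes. Complex II, whose 4 subunits are all nuclear, had 173 and 163. Cox4i1, the common form of a regulatory complex IV subunit, had the highest level of its complex in every group, from 614 in Rebound TC to 1630 CPM per kb in Endpoint TC. The acyl carrier protein Ndufab1 was the lowest complex I subunit in every group, at 4.71 to 7.99 CPM per kb in TAM and 6.04 to 10.7 in TC.

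In TAM, single subunit genes such as Uqcrc1, Sdhc, Ndufv1 and Atp5a1 were lower at Endpoint than in Vehicle, while the genes as a set were called no more often than others. Of the 85 genes tested 15 were lower and 1 was higher (edgeR quasi-likelihood test, Benjamini-Hochberg adjusted p under 0.05 over all genes tested). Across all 13315 genes 33% were called, 19.3% lower and 13.7% higher, so both the share of these genes called (18.8%) and the share lower (17.6%) were below the background. Their median log2 fold change was -0.23 against -0.03 for all genes. Lower genes numbered 9 of 40 in complex I, 2 of 4 in complex II, 1 of 8 in complex III, 2 of 16 in complex IV and 1 of 17 in complex V. Both lower genes of complex IV were alternative forms, and its 11 common structural subunits gave 0 calls, with 1 unadjusted p under 0.05 and a median of -0.02.

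In complex I the TAM genes lower at Endpoint included core as well as accessory subunits. Ndufv1, which binds the flavin that accepts electrons from NADH, was 135 to 190 CPM in Vehicle TAM (median 149) and 79.2 to 102 at Endpoint (median 89.2), with no overlap (log2 fold change -0.72, SE 0.14, adjusted p 0.000689). Ndufs8, an iron-sulfur subunit, was lower by -0.69. Also lower were the accessory subunits Ndufa9 (-0.46), Ndufa11 (-0.56), Ndufab1 (-0.65), Ndufb6 (-0.53) and Ndufv3 (-0.61) and the assembly factor Ndufaf3 (-0.54). Ndufs1, the largest core subunit, had -0.44 with an adjusted p of 0.0557, and the accessory subunit Ndufb8 had -0.51 (0.0946).

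Complexes II and III each had a gene with a larger difference. Sdhc (chromosome 1, 171127165 to 171150603, minus strand, GRCm38), a membrane anchor of succinate dehydrogenase, was 189, 189, 144, 172 and 223 CPM in the Vehicle TAM libraries and 70 to 114 at Endpoint (median 83.4). All Endpoint libraries lay below all Vehicle libraries (-0.94, SE 0.16, adjusted p 0.000248). The iron-sulfur subunit Sdhb was lower by -0.56, while the flavoprotein Sdha (-0.33, adjusted p 0.0682) and the other anchor Sdhd (-0.11) were not called. Uqcrc1 (chromosome 9, 108936633 to 108949623, plus strand), a core protein of complex III, was 592, 486, 415, 380 and 784 CPM in Vehicle TAM and 155 to 244 at Endpoint (median 224), again without overlap (-1.23, SE 0.19, adjusted p 0.000135). Its partner Uqcrc2 had -0.06, and Uqcrfs1, the Rieske iron-sulfur protein, had 0.51 (adjusted p 0.309). Uqcrfs1 was 101, 118 and 143 CPM in Vehicle TAM 54359, 54363 and 64247 but 12.3 and 77.7 in 57098 and 57682.

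In complexes IV and V few common subunits were called in Endpoint TAM. Cox4i1 was 1230, 888, 553, 599 and 1500 CPM in Vehicle TAM and 528 to 752 at Endpoint (median 620); the groups overlap, and the difference of -0.48 was not called (adjusted p 0.111). Cox5a (-0.28) and Cox5b (0.14), common subunits, were not called either. The complex IV genes called were the alternative forms Cox4i2 and Cox6a2 (lower) and Cox6b2 (higher), described below. Atp5a1, the alpha subunit of the catalytic F1 head, was 860 to 1110 CPM in Vehicle TAM and 449 to 651 at Endpoint (-0.64, SE 0.14, adjusted p 0.00183). The beta subunit Atp5b (-0.26) and the gamma subunit Atp5c1 (-0.22) were not called.

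The number called in this comparison changed when single libraries were left out. It was 7 without Vehicle TAM 64247, 9 without Endpoint 49823 or 49830, 10 without Vehicle 54363 and 25 without Vehicle 57098. Without both Vehicle mice 57098 and 57682 it was 34, all lower, while 4827 of 13972 genes were then called in all. These mice were picked by low values of these genes, so the direction of that shift was set by the choice. For the other counts here, and for counts below with libraries left out or other settings unless stated, the share of all genes called is not given. A shift in these genes cannot then be told from one in all calls.

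Rebound TAM compared with Vehicle TAM gave 11 lower and 0 higher genes of 85, with a median of -0.34; across all genes 14.7% were called, 7.73% lower and 7% higher. The count was 3 when only these 2 groups were fitted. Complex I held 6 of the 11: the core subunits Ndufs7 (-0.59), Ndufs8 (-0.83, SE 0.22, adjusted p 0.0161) and Ndufv1 (-0.56), and the accessory subunits Ndufa7, Ndufa8 and Ndufb10 (-0.54 to -0.66). Uqcrc1 was 256, 258, 192, 254 and 252 CPM at Rebound, below every Vehicle library (-1.05, SE 0.20, adjusted p 0.00326). Sdhc was 112, 106, 126, 122 and 111 CPM at Rebound, also below every Vehicle library (-0.58, SE 0.17, adjusted p 0.0257). For Sdhc the call was lost when Vehicle 64247, Rebound 49041 or Rebound 49059 was left out (adjusted p 0.0543 to 0.0621). Atp5a1 (-0.66, SE 0.15, adjusted p 0.00658), the peripheral stalk subunit Atp5h (-0.62) and Cox6a2 were the other genes called. The count was 6 without Vehicle 64247 or Rebound 49059 and 7 without Vehicle 54359, Vehicle 54363 or Rebound 49849. It was 18 without Vehicle 57682 and 21 without Vehicle 57098. Without both of those mice, picked by low values of these genes, it was 43, when 3406 of 13972 genes were called in all.

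Rebound and Endpoint TAM, both from BLZ945-treated mice, differed in 1 of 85 genes, with 17.6% of all genes called, 5.9% lower; the median was -0.13, and 0.04 with the trend in transcript length removed. The count was 2 to 4 in 5 other settings. The accessory subunit Ndufa6 was lower at Rebound (-0.53, adjusted p 0.0379), a call lost without any of 7 of the 11 libraries (adjusted p 0.0525 to 0.0882). These contrasts share libraries: the same Vehicle TAM libraries stand in both comparisons with Vehicle.

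**Figure D3:**
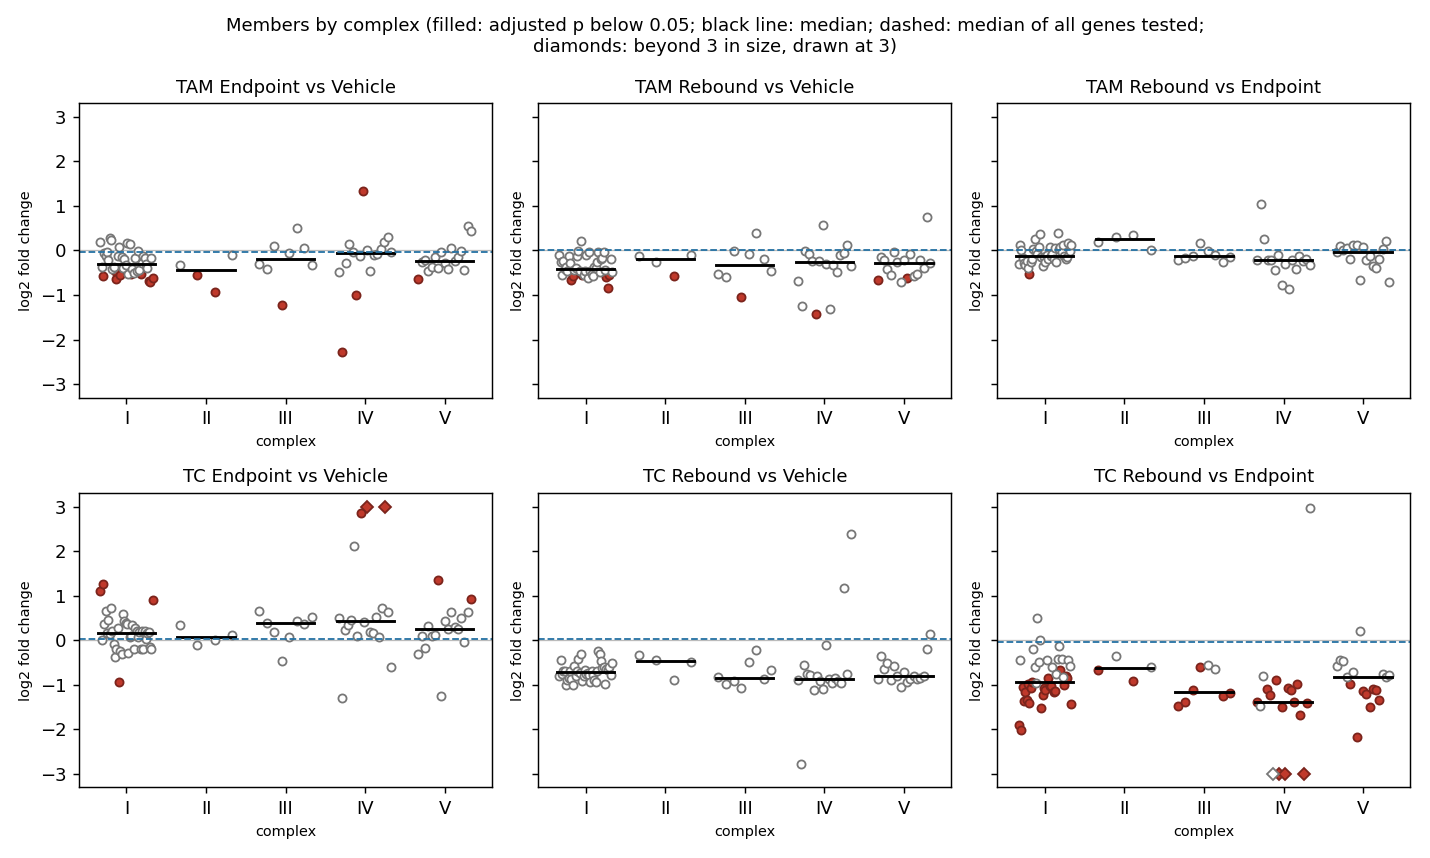
Log2 fold change of each gene (points, by complex) in the 6 comparisons between stages, with filled points for adjusted p under 0.05, a black line at the median of each complex and a dashed line at the median of all genes; diamonds mark values beyond 3 drawn at 3. The TC comparison of Rebound with Endpoint has 54 filled points, all below 0, and that of Rebound with Vehicle has 0.

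In TC the largest difference was between Rebound and Endpoint, with 54 of 87 genes lower at Rebound and 0 higher. Across all 14985 genes 25.1% were called, 11.5% lower, and the median was -0.99 for the 87 genes against -0.04 for all genes. Each complex took part: 24 of 40 genes in complex I, 2 of 4 in complex II, 6 of 8 in complex III, 14 of 18 in complex IV and 8 of 17 in complex V. In complex I 21 of 29 accessory subunits were lower against 3 of 7 core subunits. In complex V 7 of 10 subunits of the membrane part and stalks were lower against 1 of 5 of the F1 head. Whether these subclasses differ was not tested. In 51 of the 87 genes (58.6%) every Rebound library lay below every Endpoint library, against 6.4% of all genes tested.

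Among complex I genes Ndufa1, a small accessory subunit of the membrane arm, was 51.7 to 87.6 CPM in Rebound TC (median 59.1) and 136 to 587 in Endpoint TC (median 176; -1.90, SE 0.36, adjusted p 0.0022). Ndufa11, another membrane-arm subunit, was 55.5, 61, 60.7, 74.5 and 55.1 CPM at Rebound and 134 to 664 at Endpoint (median 162; -2.02, SE 0.39, adjusted p 0.00258). Neither gene overlapped between the groups. The core subunits Ndufs1 (-0.42) and Ndufv1 (-0.44) and the accessory subunits Ndufa9 (-0.19) and Ndufb8 (-0.59) were not called. In complex II Sdha was lower (-0.67, SE 0.21, adjusted p 0.0287), and so was Sdhc, at 122, 118, 130, 168 and 122 CPM in Rebound TC and 189 to 514 at Endpoint (-0.91, SE 0.28, adjusted p 0.0253). The Sdhc call was lost without Rebound 49041, 49059, 49692 or 49849 (adjusted p 0.0551 to 0.0626). Sdhb (-0.34) and Sdhd (-0.59) were not called.

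In complex III the small subunits Uqcr10 (-1.48) and Uqcr11 (-1.38, SE 0.33, adjusted p 0.0082) were lower in Rebound than in Endpoint TC, and Uqcrc1 was lower by -0.60 (adjusted p 0.0462). Uqcrc2 (-0.55) and Uqcrfs1 (-0.65) were not called. In complex IV 10 of 11 common structural subunits were lower. Cox4i1 was 373, 360, 396, 807 and 384 CPM in Rebound TC, with the high value in 49827, and 921 to 2140 in Endpoint TC (median 1060; -1.38, SE 0.32, adjusted p 0.00601). Cox5b was lower by -1.10 (adjusted p 0.0174), and Cox5a had -0.80 (0.135). Of the ATP synthase genes, Atp5g1, which encodes the proton-carrying c subunit, was 20, 29.2, 31.3, 29.2 and 30.2 CPM in Rebound TC. It was 46.9 to 382 CPM in Endpoint TC (median 74; -2.17, SE 0.47, adjusted p 0.00442). The F1 subunits Atp5a1 (-0.57, adjusted p 0.0591), Atp5b (-0.45) and Atp5c1 (-0.47) were not called.

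The marker sums given above moved with this comparison: 6 of 9 ependymal and choroid plexus markers and 10 of 12 myeloid markers were lower in Rebound than in Endpoint TC, and 10 of 12 tumour cell markers were higher. Their part in the difference of the subunit genes was not tested. Leaving out any 1 library kept the count between 40 and 58. When the 5 libraries holding T and NK markers were left out the median was -1.58. That fit kept only 49843 and 49845 at Endpoint, and 49845 had the highest subunit sum of all libraries.

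Rebound TC compared with Vehicle TC gave 0 called genes of 87, where 0.0734% of all genes were called (0.04% higher, 0.0334% lower). The median was -0.77, and 84 of the 87 log2 fold changes were negative, against 47.7% of all genes. An unadjusted p under 0.05 with a lower value at Rebound was found for 57 genes (65.5%), against 7.8% of all genes. DESeq2 called 4 (4.6%), all lower, and 4.01% of all genes in either direction. The smallest p belonged to Uqcrc1, at 209, 209, 213, 206 and 198 CPM in Rebound TC and 499, 468, 450, 371 and 410 in Vehicle TC, without overlap (-1.06, adjusted p 0.0707). Atp5a1 had -0.88 (adjusted p 0.12). In 16 genes (18.4%) every Rebound library lay below every Vehicle library, against 3.24% of all genes; other short genes also had negative medians here, as described below. The edgeR count was 10 without Rebound 49827 and 31 without Vehicle mice 57098 and 57682, all lower, when 586 of 15221 and 567 of 15596 genes were called in all. The libraries left out in both fits were picked by their values of these same genes.

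In Endpoint TC compared with Vehicle TC 8 genes were higher and 1 was lower of 87, below the background of 28.7% called (14% higher, 14.8% lower); the median was 0.21. The higher genes were the accessory complex I subunits Ndufa1 (1.11), Ndufa11 (1.27) and Ndufv3 (0.91), the alternative complex IV forms Cox6b2, Cox7a1 and Cox8b, Atp5g1 (1.36, SE 0.45, adjusted p 0.0324) and Atp5sl (0.93), which is no subunit. The complex I assembly factor Ndufaf2 was lower, at 18.4 to 42 CPM (median 24.1) against 38.8 to 65.5 (median 53.7; -0.93, SE 0.27, adjusted p 0.0184). Without Endpoint TC 49845 the comparison gave 5 higher and 5 lower genes with a median of -0.05. The count was 5 without Vehicle TC 54359 or 57098, 4 without 57682, and 4 without both 57098 and 57682, with a median of -0.13. The Atp5sl call was lost in 9 of 19 alternatives, 6 of them with 1 library left out, and the Ndufaf2 call when libraries holding T and NK markers were left out (-0.44, adjusted p 0.478). That last fit kept only 49843 and 49845 at Endpoint.

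The alternative complex IV forms gave the largest changes of the 87 genes. Cox8b, best known as the heart and skeletal muscle form of Cox8a (chromosome 7, 140898945 to 140900446, minus strand), was 0, 0.804, 0.0983, 0.0987 and 0.185 CPM in Vehicle TC and 0.835, 0, 0, 1.78 and 0 in Rebound TC. In Endpoint TC it was 6.88 to 185 CPM (median 37), with 32 to 2040 counts in every library, against at most 12 counts in a Vehicle and 24 in a Rebound library. Its fitted log2 fold change was 8.12 for Endpoint against Vehicle (SE 1.47, adjusted p 0.00182) and -6.93 for Rebound against Endpoint (SE 1.38, adjusted p 0.00342). Cox8b made up 1.74 to 19.4% of Cox8b plus Cox8a in Endpoint TC (median 10.4%) and at most 0.777% in any library of the other TC groups. In TAM it had at most 8 counts in a library. Cox8b met the rule of 10 counts in 5 libraries only through Endpoint TC, the group where it is high. Its fold changes and adjusted p-values are therefore a description of that group and no separate support.

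Cox6b2, best known from testis (chromosome 7, 4751792 to 4753094, minus strand), was 8.42, 8.11, 4.85, 4.05 and 8.75 CPM in Vehicle TC, 17.2 to 146 at Endpoint (median 30.6) and 2.71, 2.24, 3.15, 7.41 and 2.45 at Rebound. Every Endpoint library lay above every Vehicle library (2.85, SE 0.54, adjusted p 0.00197) and every Rebound library (-3.75, SE 0.57, adjusted p 0.000757). Its share of Cox6b2 plus Cox6b1 was 5.32 to 21.5% at Endpoint, 2.11 to 2.51% in Vehicle and 1.52 to 3.4% at Rebound. Cox7a1, the muscle form of Cox7a2 (chromosome 7, 30184144 to 30186078, plus strand), was 4.73 to 32.2 CPM in Endpoint TC (median 7.51) against at most 2.41 in Vehicle and 1.46 in Rebound TC. It was higher than in Vehicle by 3.58 (SE 0.71, adjusted p 0.00245), and lower at Rebound by -3.68 (SE 0.71, adjusted p 0.00258). In TAM Cox6b2 was also higher at Endpoint than in Vehicle, at 3.22 to 6.88 against 0.982 to 3.16 CPM (1.34, SE 0.40, adjusted p 0.0144; 1.19 and 0.056 without Vehicle 57098 and 57682).

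Cox6a2, the heart and skeletal muscle form of Cox6a1 (chromosome 7, 128205435 to 128206387, minus strand), was counted mainly in TAM libraries. It was 55.9, 44.8, 83.3, 79 and 69.9 CPM in Vehicle TAM, 16.4 to 46.2 at Endpoint (median 27.1) and 22, 15.4, 35.6, 17.1 and 26.5 at Rebound. It was lower than in Vehicle at Endpoint (-0.99, SE 0.28, adjusted p 0.0114), where 2 Endpoint libraries (46.2 and 45.6 CPM) lay above the lowest Vehicle library (44.8), and at Rebound without overlap (-1.42, SE 0.30, adjusted p 0.00538). The Endpoint call was lost without Vehicle 57098 and 57682 (-0.77, adjusted p 0.0771). In TC it was at most 2.86 CPM at the median of any group, with the highest value, 18.9, in Endpoint 49843. Its share of Cox6a2 plus Cox6a1 was 11.4 to 32.1% in Vehicle TAM, 6.7 to 12.2% at Endpoint and 5.94 to 12.1% at Rebound. Exons of Cox6a2 overlap those of Itgad, an integrin alpha subunit of myeloid cells, and reads of the pair may have been shared. Itgad was also higher in TAM than in TC, by 6.819, 4.543 and 6.105 in Vehicle, Endpoint and Rebound. Itgad had medians of 17.5, 8.87 and 24.6 CPM in Vehicle, Endpoint and Rebound TAM; it was lower at Endpoint (-1.39, adjusted p 0.0046) and not called at Rebound (0.28, 0.643).

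Cox4i2, the lung and low-oxygen form of Cox4i1, was 1.48 to 6.79 CPM in Vehicle TAM and 0 to 0.997 in Endpoint TAM (-2.29, SE 0.68, adjusted p 0.0143; -1.79 and 0.0712 without Vehicle 64247). It stayed at or below 0.864% of Cox4i2 plus Cox4i1 in all groups. Ndufa4l2, a relative of Ndufa4 known as a hypoxia-inducible gene, had 0 counts in all 6 Endpoint TAM libraries and was highest in Rebound TC, at 0.741 to 9.18 CPM (median 3.79). Set against an assumed floor of 3 counts over the whole Endpoint TAM group (0.0397 CPM), its mean of 0.536 CPM in Endpoint TC was 13.5-fold higher. Counts there were 0 to 14 per library, with 2 libraries at 0. All counts in these libraries were even, so that floor may be too low and the fold too high, which was not tested. Without the highest library (49831, 1.79 CPM) the mean was 0.285 CPM, 7.19-fold above the same floor. Its exons overlap those of Shmt2, which was 80.9 to 137 CPM in Rebound TC.

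**Figure D4:**
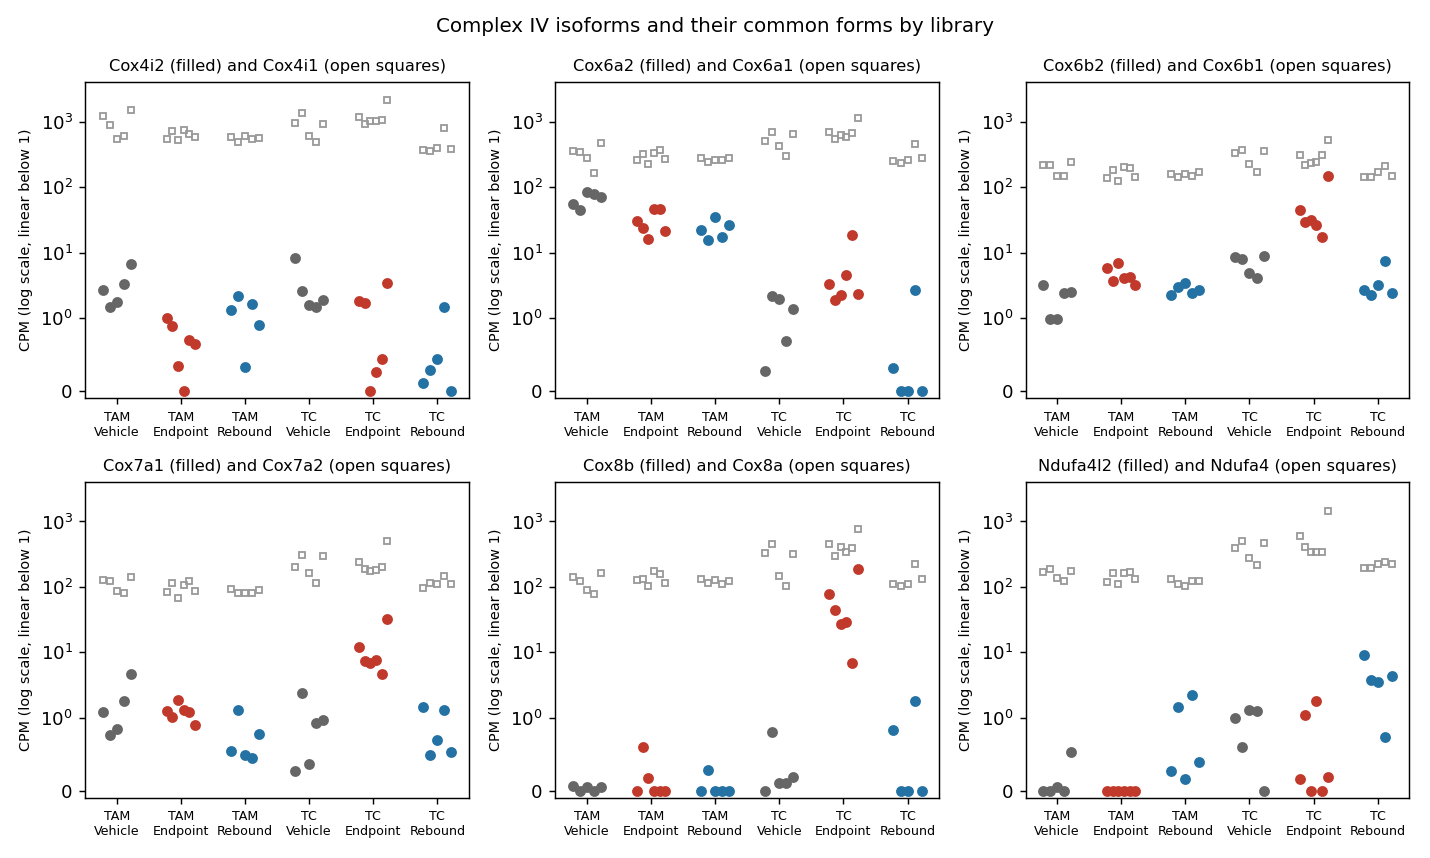
CPM of 6 alternative forms and of the common form of each in every library, by group, on a log axis that is linear below 1. Cox8b lies at 6.88 to 185 CPM in Endpoint TC and at or below 1.78 in the other groups, and Cox6a2 lies at 15.4 to 83.3 in the TAM groups.

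The promoters of the 3 alternative forms that were higher in Endpoint TC are shown with those of their common partners, because the pairs share a role and differ in level. That of Cox6a1 is added as one with several matches to the motifs searched. Each sequence is the 250 bases before the start site from RefSeq (GRCm38.p6), printed 5′ to 3′ on the gene's strand, with matches to motifs of factors known to act on respiratory genes in capitals.
Cox8a, chr19:7217617-7217866, minus strand: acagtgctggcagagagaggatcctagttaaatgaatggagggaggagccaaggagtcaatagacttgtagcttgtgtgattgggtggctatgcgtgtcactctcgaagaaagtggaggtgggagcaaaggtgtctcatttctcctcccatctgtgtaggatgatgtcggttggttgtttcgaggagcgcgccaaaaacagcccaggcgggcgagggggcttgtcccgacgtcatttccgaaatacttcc
Cox8b, chr7:140900447-140900696, minus strand: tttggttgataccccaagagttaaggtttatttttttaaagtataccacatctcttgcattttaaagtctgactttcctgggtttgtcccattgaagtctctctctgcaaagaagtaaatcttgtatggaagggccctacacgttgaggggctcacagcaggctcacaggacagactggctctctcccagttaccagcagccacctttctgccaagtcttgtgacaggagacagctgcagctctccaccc
Cox6b1, chr7:30626115-30626364, minus strand: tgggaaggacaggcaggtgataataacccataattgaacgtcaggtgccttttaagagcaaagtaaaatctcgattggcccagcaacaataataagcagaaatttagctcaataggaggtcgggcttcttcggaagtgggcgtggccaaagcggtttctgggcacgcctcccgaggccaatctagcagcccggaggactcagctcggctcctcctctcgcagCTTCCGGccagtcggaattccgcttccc
Cox6b2, chr7:4753095-4753344, minus strand: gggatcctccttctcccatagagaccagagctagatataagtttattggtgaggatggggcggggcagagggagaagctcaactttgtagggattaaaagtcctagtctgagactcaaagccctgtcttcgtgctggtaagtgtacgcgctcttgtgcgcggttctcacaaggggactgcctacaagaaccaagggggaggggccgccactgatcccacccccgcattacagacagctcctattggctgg
Cox7a2, chr9:79759854-79760103, minus strand: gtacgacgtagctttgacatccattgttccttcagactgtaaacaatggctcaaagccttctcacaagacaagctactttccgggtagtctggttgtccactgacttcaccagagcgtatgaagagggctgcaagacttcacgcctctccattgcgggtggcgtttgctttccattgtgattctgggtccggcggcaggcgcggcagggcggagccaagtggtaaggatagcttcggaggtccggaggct
Cox7a1, chr7:30183921-30184170, plus strand: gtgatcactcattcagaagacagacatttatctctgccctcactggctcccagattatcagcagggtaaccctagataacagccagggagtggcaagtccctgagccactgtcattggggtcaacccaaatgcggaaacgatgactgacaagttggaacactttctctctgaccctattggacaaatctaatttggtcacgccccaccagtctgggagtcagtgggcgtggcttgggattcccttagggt
Cox6a1, chr5:115348959-115349208, minus strand: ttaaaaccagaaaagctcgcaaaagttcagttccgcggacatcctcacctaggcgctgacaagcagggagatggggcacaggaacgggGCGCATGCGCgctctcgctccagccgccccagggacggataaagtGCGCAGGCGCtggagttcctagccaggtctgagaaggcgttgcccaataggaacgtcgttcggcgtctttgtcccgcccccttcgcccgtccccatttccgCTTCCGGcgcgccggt
The motifs searched on both strands were that of nuclear respiratory factor 1 (GCGCA, any base, then GCGC; a palindrome where that base is T), CCGGAAG (ETS family, which reads CTTCCGG on the other strand) and AAGATGGCG (YY1). Cox6a1 held 2 matches to the first and 1 to the second, Cox6b1 held 1 to the second, and Cox6b2, Cox7a1, Cox7a2, Cox8a and Cox8b held 0 of the 3 motifs in these windows. Thus the common forms Cox7a2 and Cox8a also had none. Promoters were found for 73 of the 87 genes (79 windows), Cox6a2 and Cox4i1 not among them. The nuclear respiratory factor 1 motif stood in 19% of these windows and in 3.74% of all 32851 promoter windows, CCGGAAG in 16.5 and 6.91%, AAGATGGCG in 2.53 and 0.606%, and its palindrome, a subset of the first, in 6.33 and 0.782%. A match is a string of letters and was not measured as a bound site.

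The c subunit of ATP synthase is encoded by Atp5g1, Atp5g2 and Atp5g3, whose mature proteins are the same. Atp5g3 made up 69.4 to 86.3% of the 3 in every library. Atp5g1 had its highest median share in Endpoint TC, 23.3% (14.3 to 30.5%), against 13.2 to 18.2% in Vehicle TC and 12.7 to 16.3% in Rebound TC, so Endpoint overlapped both. Atp5g2 stayed at or below 3.93%.

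TAM and TC of the same stage were compared next. In Vehicle 31 of 87 genes were lower in TAM and 3 were higher, with 54.8% of all genes called (29.2% lower) and medians of -0.43 and -0.12 for the 87 and for all genes. At Endpoint 76 were lower and 3 higher, with 51.1% of all genes called (32.4% lower) and medians of -1.09 and -0.19. At Rebound 5 were lower and 2 higher, with 47.8% called (27.4% lower, 20.4% higher) and medians of -0.15 and -0.16. Lower genes thus made up 35.6, 87.4 and 5.75% of the 87 at the 3 stages. The Vehicle count was 20 without Vehicle TC 54363. Within single mice, TAM was the lower cell type for 52 to 79 of 87 genes in the 5 Vehicle mice (median 72), 72 to 84 in the 6 Endpoint mice (median 79.5) and 27 to 73 in the 4 Rebound mice with both libraries (median 51.5). Over all genes these medians were 51.4, 51.4 and 51.9%.

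By complex, genes lower in TAM at Endpoint numbered 37 of 40, 2 of 4, 7 of 8, 15 of 18 and 15 of 17 for complexes I to V. In Vehicle they numbered 15, 0, 1, 10 and 5, and at Rebound 4, 0, 0, 1 and 0. In complex II Sdha differed by 0.13 and 0.26 and Sdhb by 0.28 and 0.41 in Vehicle and Rebound, with 0 of its 4 genes called at either stage. At Endpoint Sdha (-0.65) and Sdhc (-1.52) were lower and Sdhb (-0.29) and Sdhd (-0.30) were not called. The accessory subunit Ndufa5 was lower in TAM at each stage, by -1.51, -1.49 and -0.85 in Vehicle, Endpoint and Rebound; in Vehicle it was 37.6 to 49.7 CPM in TAM and 75.7 to 164 in TC. Ndufa4 was lower by -1.24, -2.01 and -0.87, and the assembly factor Ndufaf2 by -1.68, -0.79 and -1.33. The small complex III subunit Uqcrb was lower in Vehicle by -0.997, and Ndufb9, a complex I accessory subunit, at Endpoint by -1.51.

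Few genes were higher in TAM, and among them Cox6a2 overlaps exons of Itgad, which was also higher in TAM. Cox6a2 was higher at each stage, by 5.68, 2.50 and 5.41 (adjusted p 7.6e-06, 0.00598 and 2.59e-05; 1.63 and 0.0858 at Endpoint without the TC libraries with T and NK markers). Atp5sl was higher by 1.30, 0.70 and 0.81; its Endpoint call was lost without TAM 49823 or 49830 or TC 49823 or 49831 (adjusted p 0.0557 to 0.0788). Its Rebound call was lost without TAM 49827 or TC 49059 (0.0996 and 0.0712). The core subunit Ndufs8 was higher in Vehicle (0.60, adjusted p 0.0261), and not without Vehicle TAM 64247 or TC 57098 or 57682 (0.0726 to 0.156). Atp5g2 was higher at Endpoint (0.91, adjusted p 0.0456), a call lost in 11 of 19 alternatives.

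Whether the stage differences themselves differed between TAM and TC was tested in the model of all 6 groups. For Endpoint against Vehicle 12 genes had a more negative difference in TAM and 1 (Ndufaf2, 0.89) a more positive one, of 87, with 25.7% of all genes called (17% more negative, 8.73% more positive). The 12 included Cox7a1 (-4.13), Cox6a2 (-3.18), Ndufa11 (-1.95), Atp5g1 (-1.87), Cox4i1 (-1.09), Sdhc (-1.07), Uqcrc1 (-0.87) and Sdha (-0.78). The count was 7 without Vehicle TAM 54359 and 6 without Vehicle TAM 64247. The Ndufaf2 call was lost in 16 of 30 alternatives, the Cox6a2 and Uqcrc1 calls in 6 of 30 each and the Sdhc call in 2. For Rebound against Endpoint 36 genes had a more positive difference in TAM and 0 a more negative one, with 20.6% of all genes called (13.4% more positive, 7.18% more negative), a median of 0.92 and 0.15 for all genes. By complex these were 14, 2, 6, 8 and 6 genes, with Cox6b2 (3.04), Cox7a1 (2.88), Atp5g1 (2.37), Ndufa11 (2.09), Sdhc (1.33), Cox4i1 (1.22) and Uqcrb (1.07) among them.

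That count of 36 depended on libraries and settings. It was 16 without Endpoint TC 49845, 21 without any of Rebound TC 49041, 49059, 49692 or 49849, 22 without Endpoint TAM 49830 and 55 without Rebound TC 49827. With the mouse as a block, since TAM and TC of a number come from the same animal, it was 18. For these counts the share of all genes called is not given, so a shift in all calls cannot be told apart. For Rebound against Vehicle 0 genes were called, with 0.517% of all genes called; 5 (5.75%) had an unadjusted p under 0.05, against 13.8% of all genes, and DESeq2 called 0. These interactions share their libraries with the comparisons within each cell type.

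The 87 genes have short transcripts, with a median length of 745 bases against 2231 for the genes of the table, and other short genes moved with them in TC. For Rebound against Endpoint TC, other genes of at most 500 bases had a median of -0.54 and the 13 genes of the set in that range -1.40. From 500 to 1000 bases these were -0.59 and -1.10, and from 2000 to 4000 bases 0.03 and -0.59. For Rebound against Vehicle TC they were -0.59 and -0.82, -0.55 and -0.81, and 0.08 and -0.55. With the trend in length removed, the median of the 87 genes was -0.42 for Rebound against Endpoint TC, -0.25 for Rebound against Vehicle TC and -0.65 for TAM against TC at Endpoint. All 3 stayed negative. How length entered these libraries was not tested.

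Genes that act beside the complexes were counted from lists. Of 17 genes of pyruvate dehydrogenase and the citric acid cycle, which supply NADH and succinate, 5 (29.4%) were lower in Endpoint than in Vehicle TAM, against 19.3% of all genes, among them Ogdh (-1.50, SE 0.12, adjusted p 3.88e-07), a subunit of the oxoglutarate dehydrogenase complex. In Rebound TAM 5 were higher than at Endpoint (29.4%, against 11.7% of all genes), and in TAM at Endpoint 11 were lower (64.7%, against 32.4%) and 1 higher than in TC. Of 76 mitochondrial ribosomal protein genes, which serve the subunits made inside the organelle, 18 (23.7%) were lower and 2 higher in Endpoint than in Vehicle TAM, near the 19.3% of all genes that were lower. In TC 8 (10.5%) were lower at Endpoint than in Vehicle and 6 (7.89%) at Rebound than at Endpoint, below the 14.8 and 11.5% of all genes, with 0 higher in either. Of 6 complex I assembly genes outside the naming rule, Foxred1 was lower in TAM at Endpoint (-1.02) and Rebound (-1.09) than in Vehicle, and it was the gene called in Rebound against Vehicle TC (-1.15, adjusted p 0.0443). Of 19 assembly genes of complexes II to V, 3 (15.8%, against 11.5% of all genes) were lower in Rebound than in Endpoint TC, among them the copper chaperone Cox17 (-1.36) and Surf1 (-1.01).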

How the data were processed

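RNA of sorted TAM and TC was measured in 32 libraries from 17 mice, 15 of which gave both. The authors deposited whole-number counts per gene symbol, not normalized, in 1 table of 23337 genes (1715 without a count). Per the labels' protocols, a SMART-Seq kit was used and reads were pairs of 50 bases. STAR 2.3.0e, SAMtools and mm10 are named in the submitters' processing notes; for the counting program and the annotation, nothing is given in the sources used here. Counting both mates of a pair would give even counts only. Whether this happened in the BLZ945 libraries was not tested, and counts were used as deposited. Any difference in counting or processing between BLZ945 and vehicle libraries cannot be told apart from treatment in comparisons with Vehicle.

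Counts were tested with edgeR 4.0.16 (R 4.3.3): filterByExpr, TMM, robust glmQLFit and glmQLFTest, Benjamini-Hochberg adjustment over all genes tested, threshold 0.05. Stages were compared in 1 fit per cell type (16 libraries each; 13315 and 14985 genes), TAM with TC and the interactions in 1 fit of 32 libraries (15668 genes). All adjusted p-values are from edgeR unless DESeq2 is named. CPM levels use the TMM scaling of all 32 libraries. Standard errors come from the quasi-likelihood F statistic. Ndufa4l2 and Cox8b did not pass the TAM filter. The fits were tested on simulated data with known changes. For log2 changes of 1 and 2, the TAM fit recovered 41 and 83% (Endpoint against Vehicle). The TC fit recovered 5.05 and 47% (Endpoint against Vehicle), and the joint fit 13 and 56% (TAM against TC in Vehicle). Few or 0 calls in TC therefore do not show a lack of change, and numbers called are not comparable between fits. Libraries of a group always differed by more than sampling noise (lowest chi-square per degree of freedom 21).

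Samples with the same number come from the same mouse, so the mouse was a block in an alternative fit. Deviations from group means correlated by -0.002 to 0.431 within the 15 pairs (median 0.093). Coordinates and transcript lengths are from GENCODE M21 (GRCm38) and promoters from RefSeq. Exons of 25 of the 87 genes overlap those of another gene and 5 have an annotated pseudogene copy, so their counts are less certain; the kit does not mark strand.

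The 87 genes, the gene lists and the markers were chosen with earlier results of these data known. Genes were named by rule: reference subunits of each complex, the alternative forms, in each comparison the 3 largest called changes in each direction and the called gene with the smallest p per complex, and the 2 genes with the smallest p per list; others named were chosen after their values were seen, and some genes the rule names are not reported here. Alternatives were: DESeq2, its size factors, no low-count filter, only the groups compared, halved BLZ945 counts, rows above 1% of a library removed, the length trend removed, the mouse block, each library left out and, chosen after seeing the data, without Vehicle mice 57098 and 57682 and without the TC libraries with T and NK cell markers.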

Additional observations from a re-analysis of the deposited data

Results flagged for a closer look

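In 101 sets of 5 or 6 libraries of a group, 29 had an extreme library by Dixon's criterion, where chance gives about 5% of independent sets. These sets overlap, because sums and single genes share values, so the excess over 5% is not a test. Of these, 14 were in Endpoint TC and 13 of those were high values of 49845. Its summed CPM was 38820 for all subunits and 12780, 2291, 4309, 8946 and 10490 for complexes I to V. Its single genes were Cox4i1 at 2140, Uqcrc1 at 572, Sdhc at 514, Ndufa4 at 1440, Atp5g1 at 382, Cox6b2 at 146 and Cox7a1 at 32.2 CPM. The other Endpoint TC value was Cox6a2 at 18.9 CPM in 49843.

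Rebound TC 49827 was extreme for all subunits (12900 CPM), complex II (1063), complex IV (2776), Cox4i1 (807), Sdhc (168), Cox6a2 (2.67) and Cox6b2 (7.41), and Rebound TC 49041 for a low Atp5g1 (20 CPM). In Vehicle TC, Cox8b was 0.804 CPM in 54363 and Cox4i2 8.37 CPM in 54359, both high. In TAM the extreme values were Uqcrc1 at 192 CPM in Rebound 49827 (low), Cox8b at 0.594 CPM in Endpoint 49825 and 0.288 CPM in Rebound 49059, and Cox7a1 at 4.67 and Ndufa4l2 at 0.53 CPM in Vehicle 64247.

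The difference between TAM and TC in a stage contrast, tested as an interaction with edgeR, was called for 13 of 87 genes for Endpoint against Vehicle and for 36 for Rebound against Endpoint.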

How the results depend on the processing

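Of 1244 recomputed values for 61 single-gene results, 1157 kept their direction and their side of the threshold, 87 kept the direction and lost the call, and 0 reversed. Medians kept their sign in the alternatives run except 5: 0.04 for Rebound against Endpoint TAM and 0.018 for TAM against TC at Rebound with the length trend removed, 0.008 for the latter without Rebound TC 49827, and -0.05 and -0.13 for Endpoint against Vehicle TC without Endpoint 49845 and without Vehicle 57098 and 57682. With the length trend removed, the median log2 fold change was -0.42 for Rebound against Endpoint TC, -0.25 for Rebound against Vehicle TC, -0.65 for TAM against TC at Endpoint and 0.437 for the interaction of Rebound against Endpoint. That interaction's median was 1.311 without the TC libraries with T and NK markers and 0.615 to 1.054 with 1 library left out. Without those TC libraries the median of Rebound against Endpoint TC was -1.58. The fits without them kept only 49843 and 49845 in Endpoint TC, and 49845 had the highest subunit sum of all libraries.

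Without Vehicle 57098 and 57682 the genes called numbered 34 in Endpoint and 43 in Rebound against Vehicle TAM, 4 in Endpoint and 31 in Rebound against Vehicle TC, and 7 in the Endpoint against Vehicle interaction. Those mice were picked by low values of these same genes. Without the T and NK marker libraries, which left only 49843 and 49845 in Endpoint TC, they were 59 in the Rebound against Endpoint interaction and 1 in Rebound against Vehicle TC. Without the low-count filter they were 6 and 14 in the Endpoint against Vehicle and Rebound against Endpoint interactions and 3 in Rebound against Endpoint TAM. With rows above 1% of a library removed they were 21 in the Rebound against Endpoint interaction and 2 in Rebound against Endpoint TAM. Rebound against Endpoint TAM also gave 2 with halved BLZ945 counts, 2 with DESeq2 and 4 with only the groups compared, and Rebound against Vehicle TAM 3 with only the groups compared. DESeq2 gave 4 in Rebound against Vehicle TC. The causes of these shifts were not tested. Except where given above, the share of all genes called is not given for the counts in this section. A shift in these genes cannot then be told from one in all calls. With the mouse as a replicate block the Rebound against Endpoint interaction gave 18 genes in place of 36, and no other count moved by over 1.5 times.

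With 1 library left out, the called genes numbered 7 to 25, 6 to 21 and 0 to 3 in TAM (Endpoint against Vehicle, Rebound against Vehicle, Rebound against Endpoint) and 4 to 10, 0 to 10 and 40 to 58 in TC. They numbered 20 to 38, 67 to 78 and 5 to 8 for TAM against TC (Vehicle, Endpoint, Rebound). The interactions gave 6 to 17 (Endpoint against Vehicle), 0 to 0 (Rebound against Vehicle) and 16 to 55 (Rebound against Endpoint).

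Total counts, which limit the precision of low genes, were lowest in Endpoint TC, down to 4.18 M.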

Other observations

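Among 12 regulators of respiratory genes, Ppargc1a, a coactivator known for inducing mitochondrial genes, was 25.5 CPM in Endpoint TC (SD 15.1, n = 6) against 6.93 (SD 3.61, n = 5) in Vehicle and 7.11 (SD 4.89, n = 5) in Rebound TC. It was higher at Endpoint than in Vehicle (1.89, edgeR adjusted p 0.0135) and lower at Rebound than at Endpoint (-1.82, 0.0172). Of the 12 regulators, Ppargc1a was the only 1 called in Endpoint against Vehicle TC, where 28.7% of all genes were called. It was 1 of 2 called in Rebound against Endpoint TC, where 25.1% of all genes were called. The list was thus called less often than all genes in both. Markers of ependymal and choroid plexus cells moved in the same libraries, and their part in the Ppargc1a values was not tested. Of the 6 carriers and porins, 3 were lower and 0 higher in Endpoint than in Vehicle TAM, where 19.3% of all genes were lower. They included the outer membrane channels Vdac2 (-0.69, SE 0.14, adjusted p 0.000819) and Vdac1 (-0.59, SE 0.17, adjusted p 0.0125). The adenine nucleotide carrier Slc25a4, which exchanges ADP for ATP, was lower in TAM than in TC in Vehicle (-2.12), at Endpoint (-1.64) and at Rebound (-1.43).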
